A study of Xenopus laevis and Xenopus tropicalis with 12 samples.

Results

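The 61 gene models described here encode core proteins of the spliceosome, SR proteins and heterogeneous nuclear ribonucleoproteins (hnRNPs), and were chosen by symbol from the 28165 models counted in animal and vegetal hemispheres of Xenopus oocytes. The rule took symbols that begin with snrp, sf3a, sf3b, prpf, u2af, srsf or hnrnp, the last without hnrnpab, and used no measured value. By role the models comprise 6 Sm core proteins, 6 proteins of the U1 snRNP, 13 of the U2 snRNP and U2AF, 7 grouped with the U4/U6.U5 tri-snRNP, 3 other PRP factors, 11 SR proteins and 15 hnRNPs. Symbols that begin with snrnp fall outside the rule and are counted with the other splicing genes.

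Introns are removed by the spliceosome, which is built on each transcript from small nuclear ribonucleoproteins (snRNPs). The U1 snRNP recognises the 5′ splice site, U2AF and the U2 snRNP recognise the 3′ splice site and the branch point, and the U4/U6.U5 tri-snRNP then joins to form the catalytic centre. SR proteins and hnRNPs bind the transcript itself and favour or hinder the use of nearby splice sites. A fully grown Xenopus oocyte keeps its large nucleus in the animal hemisphere and stores mRNA and protein for the embryo, and some stored mRNAs are anchored at the vegetal pole.

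Oocytes were cut by hand into animal and vegetal hemispheres, and total RNA of each was sequenced. In X. laevis, stage VI oocytes of 2 females, A and B, gave 2 batches each (A_t1, A_t2, B_t1 and B_t2), so 4 animal and 4 vegetal libraries. In X. tropicalis, full grown oocytes of 2 females, 1 and 2, gave 2 animal and 2 vegetal libraries. No oocyte was treated and no allele or strain was named, and the hemispheres of 1 batch or female formed a pair in the tests.

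Total counts lay between 30416352 and 45235154 in X. laevis and between 7772801 and 28392285 in X. tropicalis. The 61 members took 1.57% to 1.85% of the X. laevis counts and 1.55% to 1.8% of the X. tropicalis counts. The labels were compared with markers: all 8 vegetal markers (such as grip2) were called vegetal and all 3 animal markers animal in both species. The lists were chosen with earlier results of these data known, so this is not an independent check. Both species were counted on the same X. tropicalis models. A table of X. laevis genes lists both an L and an S copy for 42 members, 1 copy for 16 and no match for 3, so most X. laevis values may hold reads of both copies.

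Levels are given as counts per 1000000 counted reads (CPM). A CPM value is a share of the reads of 1 hemisphere, not an amount per oocyte and not a level per transcript length, so it is compared between libraries for 1 gene and never between genes. Where a library also held other cells, such as follicle cells, fewer such cells and less RNA per cell cannot be told apart. A member was called vegetal or animal at an adjusted p under 0.05 in edgeR's quasi-likelihood test with Benjamini-Hochberg adjustment over all models tested, and all 61 passed the filter on low counts in both species.

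In X. laevis, mRNAs of 9 of the 15 hnRNPs, of the SF3a subunits Sf3a1 and Sf3a2 and of the Sm protein SmD1 took a larger share of the vegetal hemisphere, while those of the large spliceosome proteins Sf3b1, Sf3b3 and Prpf8 and of the SR proteins Srsf1, Srsf6 and Srsf12 took a larger share of the animal hemisphere. Of the 61 members, 21 (34.4%) were called vegetal and 8 (13.1%) animal, beside 13.2% and 14.4% of all 14517 models tested. The median log2 fold change (vegetal over animal) of the members was 0.20, against -0.01 over all models, and 47 of 61 were above 0. The changes were small: srsf12 alone changed at least 2-fold, a size that 6.59% of all models reached with a call. The vegetal count depended on which batch was left out: it was 8 without A_t2, 12 without B_t2, 19 without B_t1 and 23 without A_t1. Without the pairing it was 12. Calls over all models, in either direction, also moved, from 4017 to 1711 without A_t2 and 2614 without B_t2. They were 3905 without B_t1, 4241 without A_t1 and 2029 without the pairing. With library totals in place of TMM factors 14 members were called vegetal and 9 animal, and DESeq2 called 29 members vegetal and 9 animal. Over all models, calls in either direction were 4061 with library totals and 4416 with DESeq2. Called vegetal in each of the 4 fits that left out a batch were snrpd1, snrpc, sf3a1, sf3a2, prpf31, hnrnph3, hnrnpu and hnrnpul2, and called animal in each were sf3b1, sf3b3, prpf38b, prpf8, srsf1, srsf6 and srsf12.

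In X. tropicalis, 19 members (31.1%) were called vegetal and 15 (24.6%) animal, beside 15.6% and 17.3% of all 12916 models tested. Of the 15 hnRNPs 8 were called vegetal and 0 animal, of the 11 SR proteins 1 was called vegetal and 4 animal, and the U2 snRNP and U2AF had 4 vegetal and 5 animal calls. The median log2 fold change of the members was 0.07, against -0.01 over all models, and 37 of 61 were above 0. The SR protein mRNA srsf6 alone changed at least 2-fold, a size that 6.92% of all models reached with a call. These calls rest on 2 pairs and on a spread pooled across models. Without the pairing edgeR called 0 members, while 8 members had an unadjusted p under 0.05. It called 262 of all 12916 models without the pairing, against 4256 with it. DESeq2 with the pairing called 9 members vegetal and 12 animal, beside 2108 of all models in either direction. With library totals in place of TMM factors, edgeR called 12 members vegetal and 17 animal, beside 4179 of all models in either direction. Fits without the pairing and with 1 library left out hold a lone library in a hemisphere, so their calls are not counted. The median log2 fold change of the members in these fits ranged from -0.0762 (without vegetal library 2) to 0.201 (without animal library 2).

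**Figure D1:**
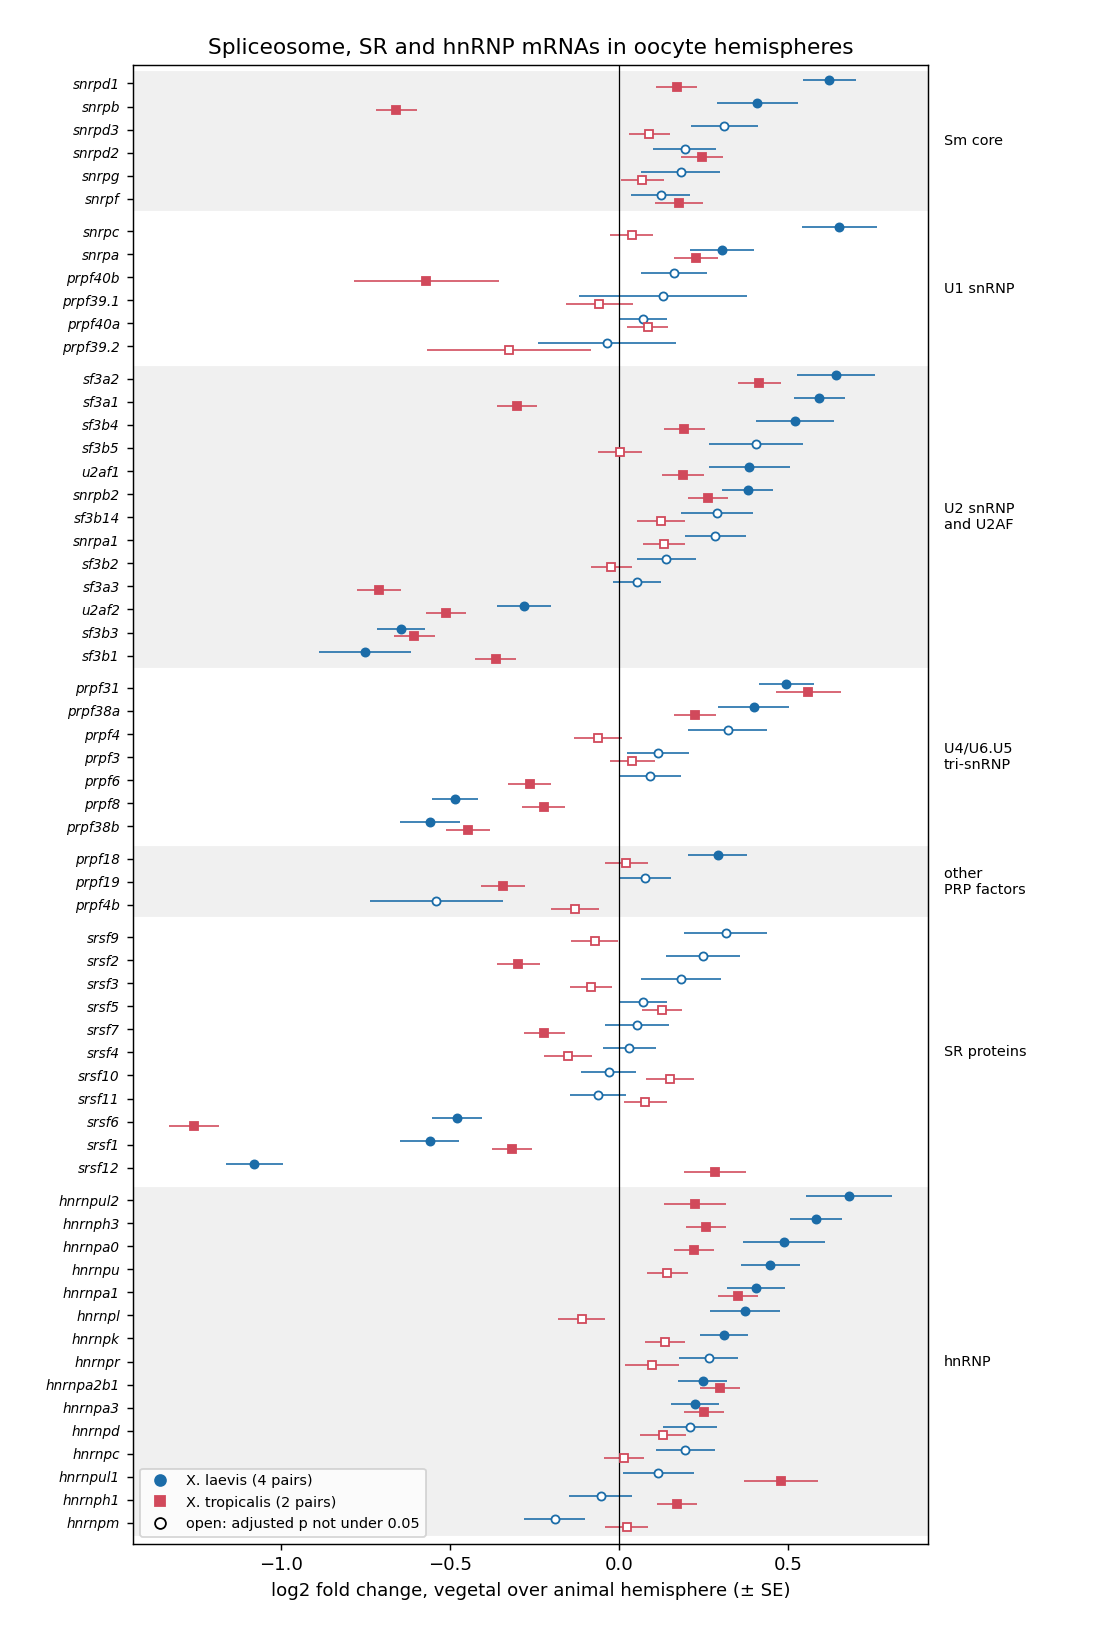
Log2 fold change (vegetal over animal, with its standard error) of each of the 61 members, grouped by role, in X. laevis (circles, 4 pairs of libraries) and X. tropicalis (squares, 2 pairs). Filled symbols have an adjusted p under 0.05. Among the 15 hnRNPs, 9 filled symbols of X. laevis and 8 of X. tropicalis lie to the right of 0 and none to the left.

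The Sm core is the ring of proteins that holds the snRNA in most spliceosomal snRNPs, but not that of U6. In X. laevis 2 of its 6 members (snrpd1 and snrpb) were called vegetal and 0 animal. In X. tropicalis 3 (snrpd1, snrpd2 and snrpf) were called vegetal and 1 (snrpb) animal, and with DESeq2 or with library totals 1 (snrpd2) was called vegetal. The median log2 fold change of the 6 came to 0.25 (X. laevis) and 0.13 (X. tropicalis).

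The mRNA of SmD1 (snrpd1) stood at 134, 124, 122 and 111 CPM in the animal libraries A_t1, A_t2, B_t1 and B_t2 and at 195, 214, 179.8 and 168 CPM in the vegetal ones. The X. laevis groups did not overlap. It rose vegetally by a log2 fold change of 0.62 ± 0.08 (SE, n = 4 pairs; edgeR adjusted p = 0.000974). In X. tropicalis its animal libraries of females 1 and 2 held 231 and 259.8 CPM and the vegetal ones 263 and 289 CPM, a smaller log2 difference of 0.17 ± 0.06 (edgeR adjusted p = 0.0216) whose call was lost with DESeq2 and with library totals in place of TMM factors.

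The mRNA of SmB (snrpb) was among the members with the most reads and was called in opposite directions in the species. In X. laevis it stood at 779.6, 822, 719.9 and 775 CPM in the animal libraries A_t1, A_t2, B_t1 and B_t2 and at 827, 1163, 1260 and 916 CPM in the vegetal ones. Each vegetal library lay above every animal one, by little in A_t1 and most in B_t1, and the log2 fold change was 0.41 ± 0.12 (SE, n = 4 pairs; edgeR adjusted p = 0.0393). That call was lost without batch A_t2, without batch B_t2, without the pairing and with library totals. In X. tropicalis snrpb fell from 707 to 449.9 CPM in female 1 and from 1155 to 728 CPM in female 2, a log2 fold change of -0.66 ± 0.06 (edgeR adjusted p = 4.35e-20). Females differed more than hemispheres there, so the groups overlapped while both pairs fell by a like ratio.

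The U1 snRNP proteins recognise the 5′ splice site together with U1 snRNA. Of 6 members, snrpc and snrpa were called vegetal in X. laevis and 0 animal, and in X. tropicalis snrpa was called vegetal and prpf40b animal. The X. laevis call of snrpa (edgeR adjusted p = 0.0469) was lost without batch A_t2, B_t1 or B_t2, without the pairing and with library totals, and DESeq2 called neither snrpa nor prpf40b in X. tropicalis. The mRNA of U1-C (snrpc) stood at 158, 177, 138 and 147 CPM in the X. laevis animal libraries A_t1, A_t2, B_t1 and B_t2 and at 208, 289.8, 282 and 204 CPM in the vegetal ones. All 4 vegetal libraries lay above all 4 animal ones, and the log2 fold change was 0.65 ± 0.11 (edgeR adjusted p = 0.00459). The X. tropicalis libraries held 153 and 127 CPM (animal) and 153 and 132 CPM (vegetal), with no call (edgeR adjusted p = 0.717). The difference between species was just short of a call (edgeR adjusted p = 0.0507). The homologues of yeast Prp39 were called in neither species, and prpf39.2 had the fewest reads of all members, with a mean CPM of 1.82 in X. laevis and 3.61 in X. tropicalis.

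The U2 snRNP and U2AF hold the 3′ splice site and branch point, and their mRNAs were split between the hemispheres in both species. Of the 13, 5 were called vegetal (sf3a1, sf3a2, sf3b4, snrpb2 and u2af1) and 3 animal (sf3b1, sf3b3 and u2af2) in X. laevis, and without batch A_t2 the counts were 2 and 2. In X. tropicalis 4 were called vegetal (sf3a2, sf3b4, snrpb2 and u2af1) and 5 animal (sf3a1, sf3a3, sf3b1, sf3b3 and u2af2), and with DESeq2 or library totals 2 were called vegetal and 5 animal. Within the SF3b complex, the mRNAs of Sf3b1 and Sf3b3 and that of Sf3b4 were called on opposite sides in both species. The other SF3b members, sf3b2, sf3b5 and sf3b14, were called in neither. The mRNAs of the U2AF heterodimer also had calls on opposite sides in both species. Its large subunit (u2af2) binds the polypyrimidine tract and its small subunit (u2af1) reads the AG of the 3′ splice site.

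The mRNA of Sf3b1, which contacts the branch point and is the target of splicing inhibitors such as pladienolide, stood at 409, 485, 359.6 and 368 CPM in the X. laevis animal libraries A_t1, A_t2, B_t1 and B_t2. The vegetal libraries held 327, 246, 163 and 248 CPM, all below the lowest animal library. The log2 fold change was -0.75 ± 0.14 (SE, n = 4 pairs; edgeR adjusted p = 0.0058), and the 4 pairs ranged from -0.32 in A_t1 to -1.14 in B_t1. In X. tropicalis sf3b1 went from 446 to 344 CPM in female 1 and from 414 to 323 CPM in female 2, without overlap, a log2 fold change of -0.36 ± 0.06 (edgeR adjusted p = 8.9e-08).

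The mRNA of Sf3b3, the scaffold partner of Sf3b1, had nearly equal ratios in all pairs of both species. Its X. laevis animal libraries A_t1, A_t2, B_t1 and B_t2 held 656, 574, 503 and 488 CPM and the vegetal ones 434, 372, 299.7 and 318 CPM. The groups did not overlap, and the log2 fold change was -0.65 ± 0.07 (edgeR adjusted p = 0.000491). The X. tropicalis libraries held 370.2 and 311 CPM (animal) and 238 and 209 CPM (vegetal), again without overlap, a log2 fold change of -0.61 ± 0.06 (edgeR adjusted p = 5.64e-17).

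The mRNA of Sf3b4 was on the other side. In X. laevis it stood at 324, 320.1, 311 and 312 CPM in the animal libraries A_t1, A_t2, B_t1 and B_t2 and at 389, 532, 549 and 375 CPM in the vegetal ones. The animal libraries were close together, and A_t2 and B_t1 were the highest vegetal ones. Its log2 fold change was 0.52 ± 0.12 (edgeR adjusted p = 0.0138), a call that was lost without batch A_t2. The X. tropicalis pairs rose from 229 to 261 CPM and from 257 to 294 CPM, a log2 fold change of 0.19 ± 0.06 (edgeR adjusted p = 0.00792) that was lost with DESeq2 and with library totals.

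The 3 subunits of SF3a, which tie SF3b to the rest of the U2 snRNP, differed among themselves and between species. The mRNA of Sf3a2 was called vegetal in both: X. laevis held 364, 336, 283 and 269.7 CPM in the animal libraries A_t1, A_t2, B_t1 and B_t2 and 434, 575, 549.6 and 402 CPM in the vegetal ones. These groups did not overlap, with a log2 fold change of 0.64 ± 0.12 (edgeR adjusted p = 0.00587). In X. tropicalis sf3a2 rose from 157 to 213 CPM in female 1 and from 202 to 266 CPM in female 2, a log2 fold change of 0.41 ± 0.06 (edgeR adjusted p = 5.1e-09).

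The mRNA of Sf3a1 was called vegetal in X. laevis and animal in X. tropicalis. Its X. laevis animal libraries A_t1, A_t2, B_t1 and B_t2 held 349.8, 371, 344 and 347 CPM and the vegetal ones 482, 594, 553 and 505 CPM. The animal libraries spanned a narrow range well below the vegetal ones, and the log2 fold change was 0.59 ± 0.08 (edgeR adjusted p = 0.00107). Both X. tropicalis pairs fell, from 473 to 374 CPM and from 399.5 to 332 CPM, a log2 fold change of -0.30 ± 0.06 (edgeR adjusted p = 9.71e-06). The mRNA of Sf3a3 was not called in X. laevis, where the animal mean was 215 ± 27.9 CPM and the vegetal mean 222 ± 21.9 CPM (SD, n = 4). The X. tropicalis pairs of sf3a3 fell from 167 to 103 CPM in female 1 and from 203 to 123 CPM in female 2, a log2 fold change of -0.71 ± 0.06 (edgeR adjusted p = 7.15e-20).

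Of the U2AF heterodimer, u2af2 stood at 633, 572, 523 and 496 CPM in the X. laevis animal libraries A_t1, A_t2, B_t1 and B_t2 and at 455, 494, 466 and 412 CPM in the vegetal ones. The vegetal library A_t2 lay just below the animal library B_t2, and the log2 fold change was -0.28 ± 0.08 (edgeR adjusted p = 0.0358). The call was lost without batch A_t1, A_t2 or B_t2 and without the pairing. In X. tropicalis u2af2 fell from 552 to 387 CPM and from 493 to 347 CPM, a log2 fold change of -0.51 ± 0.06 (edgeR adjusted p = 1.5e-13). For u2af1 the X. laevis groups overlapped, with means of 233 ± 34.0 CPM animal and 307 ± 61.1 CPM vegetal (SD, n = 4). The X. laevis edgeR adjusted p of u2af1 was 0.0471, and its call was lost without batch A_t2, B_t1 or B_t2, without the pairing and with library totals. In X. tropicalis u2af1 rose from 144 to 167 CPM in female 1 and from 208 to 234 CPM in female 2. The log2 fold change was 0.19 ± 0.06 (edgeR adjusted p = 0.0124), a call that was lost with DESeq2 and with library totals. Without the pairing and with 1 library left out, this X. tropicalis log2 fold change of u2af1 ranged from -0.08 to 0.49.

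**Figure D2:**
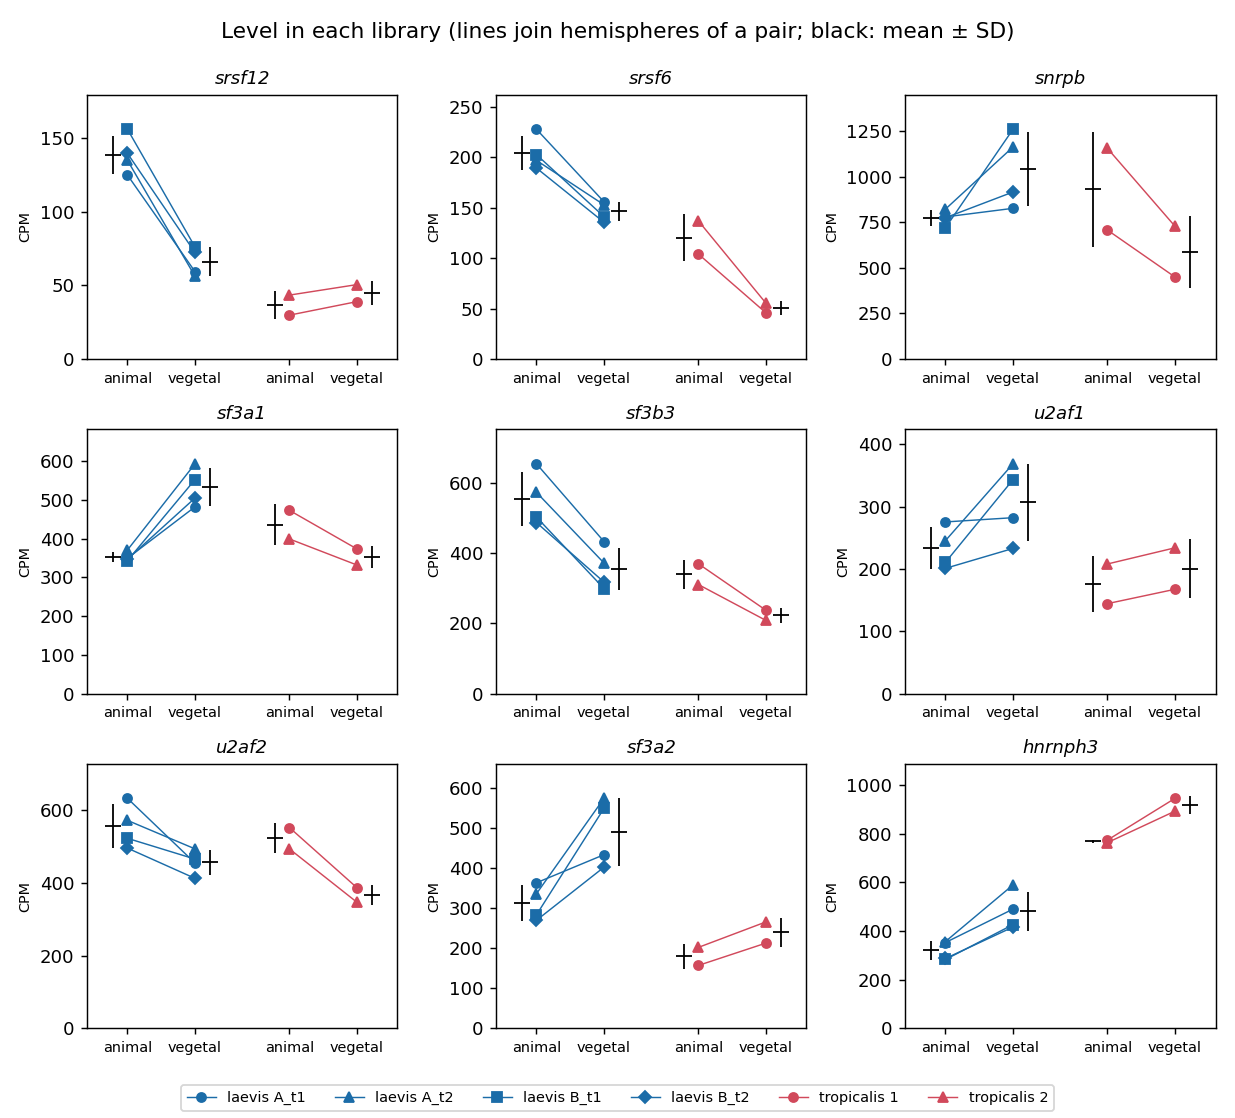
CPM in every library for 9 members, with lines that join the animal and vegetal library of a pair (X. laevis batches in blue, X. tropicalis females in red) and the mean ± SD of each group in black. Each vertical axis starts at 0. The lines of srsf12, snrpb and sf3a1 slope in opposite directions in the species, while those of sf3b3, u2af2 and srsf6 fall in all 6 pairs and those of sf3a2, u2af1 and hnrnph3 rise in all 6.

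The tri-snRNP brings the catalytic core, and its mRNAs were also called on both sides. The 7 members grouped here include the B-complex protein Prpf38a and the related Prpf38b. In both species prpf31 and prpf38a were called vegetal and prpf8 and prpf38b animal. The member prpf6 was called animal in X. tropicalis alone, without a call for its difference between species (edgeR adjusted p = 0.139). The call of prpf38a was lost without batch A_t2 or B_t2 in X. laevis and with DESeq2 in X. tropicalis. Prpf8 cradles the active site of the spliceosome and is among its largest proteins. Its mRNA stood at 876, 756, 694 and 667 CPM in the X. laevis animal libraries A_t1, A_t2, B_t1 and B_t2 and at 627, 535, 485 and 491 CPM in the vegetal ones. The groups did not overlap, and the 4 pairs were nearly equal, from -0.44 to -0.52 on the log2 scale, with a fitted log2 fold change of -0.49 ± 0.07 (edgeR adjusted p = 0.00175). In X. tropicalis prpf8 fell from 178 to 147 CPM and from 132 to 116 CPM, a log2 fold change of -0.22 ± 0.06 (edgeR adjusted p = 0.00302) that DESeq2 did not call.

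The mRNA of Prpf31, which bridges U4/U6 and U5, had X. laevis animal levels of 355, 394, 243 and 259 CPM in A_t1, A_t2, B_t1 and B_t2 and vegetal levels of 457, 561, 392 and 346 CPM. Female A was above female B in both hemispheres, so the groups overlapped while all 4 pairs were higher vegetally. The log2 fold change was 0.49 ± 0.08 (edgeR adjusted p = 0.00371) and was not called without the pairing. In X. tropicalis its animal levels were 14.1 and 50.4 CPM and its vegetal levels 27.5 and 65.9 CPM in females 1 and 2. The females differed more than the hemispheres, the pairs gave log2 ratios of 0.96 and 0.39, and the fitted value was 0.56 ± 0.10 (edgeR adjusted p = 2.38e-07). Without the pairing the sign turned when animal library 1 (log2 -0.09) or vegetal library 2 (-0.24) was left out. The mRNA of Prpf38b, related to the B-complex protein Prpf38a, fell by 0.56 ± 0.09 on the log2 scale in X. laevis (edgeR adjusted p = 0.00313) and by 0.45 ± 0.07 in X. tropicalis (edgeR adjusted p = 2.07e-09), without overlap of the groups in either.

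Of the 3 other PRP factors, prpf18, which acts in the second step of splicing, was called vegetal in X. laevis (edgeR adjusted p = 0.0407), a call lost without batch A_t2, B_t1 or B_t2, without the pairing and with library totals. The ubiquitin ligase prpf19 was called animal in X. tropicalis alone, with 215 and 116 CPM in the animal and 166 and 93.3 CPM in the vegetal libraries. Its females overlapped across hemispheres, and its sign turned without the pairing when animal library 1 (log2 0.16) or vegetal library 2 (0.003391) was left out. The kinase prpf4b varied between pairs: its X. laevis log2 ratios were 0.02, -0.65, -1.31 and -0.23 in A_t1, A_t2, B_t1 and B_t2, and it was not called (edgeR adjusted p = 0.0757).

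SR proteins bind exonic enhancers through their RNA recognition motifs and recruit the splicing machinery through their arginine-serine tails. Of 11 members, 0 were called vegetal and 3 animal (srsf1, srsf6 and srsf12) in X. laevis. In X. tropicalis 1 was called vegetal (srsf12) and 4 animal (srsf1, srsf2, srsf6 and srsf7). There DESeq2 called 0 vegetal and 3 animal, with srsf12 and srsf7 lost, and library totals gave 0 and 5. In X. laevis DESeq2 called 1 vegetal and 3 animal, and female B alone gave 0 vegetal and 1 animal call (srsf12). The median log2 fold change of the 11 came to 0.03 (X. laevis) and -0.08 (X. tropicalis). The member with the most reads in X. laevis, srsf5, was called in neither species: its log2 fold change was 0.07 ± 0.07 at 926 ± 59.7 CPM animal and 974 ± 89.0 CPM vegetal (SD, n = 4) in X. laevis, and 0.13 ± 0.06 in X. tropicalis (edgeR adjusted p = 0.483 and 0.0878).

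The mRNA of Srsf12, an atypical SR protein known in human cells to antagonise splicing activators, had the lowest log2 fold change of the 61 members in X. laevis. It stood at 125, 135, 156 and 139.7 CPM in the animal libraries A_t1, A_t2, B_t1 and B_t2 and at 59.4, 56.3, 76.2 and 72.4 CPM in the vegetal ones. Every vegetal library was far below every animal one, and the log2 fold change was -1.08 ± 0.08 (SE, n = 4 pairs; edgeR adjusted p = 8.2e-05). The X. tropicalis levels went the other way, from 29.8 to 39 CPM in female 1 and from 43.5 to 50.6 CPM in female 2, a log2 fold change of 0.28 ± 0.09 (edgeR adjusted p = 0.00822). That X. tropicalis call was lost with DESeq2 and with library totals in place of TMM factors.

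The mRNA of Srsf6, a classical SR protein, fell vegetally in both species and fell further in X. tropicalis. In X. laevis it stood at 228, 197, 202 and 189 CPM in the animal libraries A_t1, A_t2, B_t1 and B_t2 and at 156, 153, 141 and 135 CPM in the vegetal ones. The groups did not overlap, with a log2 fold change of -0.48 ± 0.07 (edgeR adjusted p = 0.00269). The X. tropicalis levels went from 104 to 45.7 CPM in female 1 and from 137 to 55.3 CPM in female 2, a log2 fold change of -1.26 ± 0.07 (edgeR adjusted p = 3.03e-36). Even the higher vegetal library there was well below the lower animal one. The mRNA of Srsf1, the founding SR protein, fell by 0.56 ± 0.09 on the log2 scale in X. laevis, from 473 ± 18.5 to 321 ± 27.6 CPM (SD, n = 4; edgeR adjusted p = 0.00271). Those of X. tropicalis went from 801 to 638 CPM and from 789 to 639.5 CPM, a log2 fold change of -0.32 ± 0.06 (edgeR adjusted p = 2.52e-06).

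The hnRNPs package nascent transcripts, and several proteins of this family, not all among the members, also bind localised mRNAs in the cytoplasm of oocytes. Of 15 members, 9 were called vegetal in X. laevis (hnrnpa0, hnrnpa1, hnrnpa2b1, hnrnpa3, hnrnph3, hnrnpk, hnrnpl, hnrnpu and hnrnpul2) and 8 in X. tropicalis (hnrnpa0, hnrnpa1, hnrnpa2b1, hnrnpa3, hnrnph1, hnrnph3, hnrnpul1 and hnrnpul2), and 0 were called animal by edgeR in either. The 9 X. laevis calls became 3 (hnrnph3, hnrnpu and hnrnpul2) without batch A_t2, 5 without batch B_t2 and 5 without the pairing, and with library totals 6 were called vegetal and 1 (hnrnpm) animal. DESeq2 called 5 of the 8 vegetal in X. tropicalis. By sign, 13 of 15 were above 0 in X. laevis and 14 of 15 in X. tropicalis, with median log2 fold changes of 0.26 and 0.17. The exceptions were hnrnph1 and hnrnpm in X. laevis and hnrnpl in X. tropicalis, none of them called there. These counts hold for the 15 hnrnp symbols. Outside the symbol rule, ptbp1 (hnRNP I) was called animal in X. laevis (log2 -0.84 ± 0.09) and fus (hnRNP P2) in X. tropicalis (log2 -0.56 ± 0.06). The list of other splicing regulators that holds them had 7 vegetal and 4 animal calls in X. laevis and 4 of each in X. tropicalis.

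The mRNA of hnRNP H3 (hnrnph3) stood at 353, 357, 283 and 287 CPM in the X. laevis animal libraries A_t1, A_t2, B_t1 and B_t2 and at 490.2, 589.8, 426 and 416 CPM in the vegetal ones. The groups did not overlap, and the log2 fold change was 0.58 ± 0.08 (SE, n = 4 pairs; edgeR adjusted p = 0.00114). Both X. tropicalis pairs rose, from 775 to 946 CPM and from 764 to 894 CPM, also without overlap, a log2 fold change of 0.26 ± 0.06 (edgeR adjusted p = 0.00015).

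The mRNA of hnRNP A1 (hnrnpa1), a repressor of splice sites, stood at 708, 687, 609 and 604 CPM in the X. laevis animal libraries A_t1, A_t2, B_t1 and B_t2 and at 814, 996, 901 and 754 CPM in the vegetal ones. The lowest vegetal library was above the highest animal one, and the log2 fold change of 0.41 ± 0.09 (edgeR adjusted p = 0.012) was no longer called without batch A_t2. Both X. tropicalis pairs of hnrnpa1 rose, from 528 to 695 CPM and from 602 to 745 CPM, a log2 fold change of 0.35 ± 0.06 (edgeR adjusted p = 1.78e-07). The mRNA of hnRNP A2/B1 (hnrnpa2b1), known to bind localised RNAs, had the most reads of all members in X. tropicalis, with 904 and 941 CPM animal and 1180 and 1092 CPM vegetal. Its log2 fold change was 0.30 ± 0.06 there (edgeR adjusted p = 9.92e-06) and 0.25 ± 0.07 in X. laevis (edgeR adjusted p = 0.0384), where the call was lost without batch A_t1, A_t2 or B_t2, without the pairing and with library totals.

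The U-like proteins had the highest log2 fold change among the hnRNPs, hnrnpul2 in X. laevis and hnrnpul1 in X. tropicalis. The mRNA of hnRNP U-like 2 (hnrnpul2) stood at 70.5, 113, 89.5 and 126 CPM in the X. laevis animal libraries A_t1, A_t2, B_t1 and B_t2 and at 108, 160.2, 202 and 169 CPM in the vegetal ones. All 4 pairs were higher vegetally, B_t1 by the most (log2 1.18), while the groups overlapped through the low A_t1 pair. Its log2 fold change of 0.68 ± 0.13 (edgeR adjusted p = 0.00699) was the highest of the 61 in X. laevis and was not called without the pairing. The X. tropicalis libraries held 35 and 39.8 CPM animal and 36.4 and 50.1 CPM vegetal, a log2 fold change of 0.22 ± 0.09 (edgeR adjusted p = 0.0456). That call was lost with DESeq2, with library totals and with other filters on low counts, and its sign turned (-0.04) without vegetal library 2 and the pairing. The mRNA of hnRNP U-like 1 (hnrnpul1) was called vegetal in X. tropicalis, from 17.7 to 26.1 CPM and from 22.6 to 30.4 CPM (log2 0.48 ± 0.11; edgeR adjusted p = 0.000126), which DESeq2 did not call. In X. laevis it was not called (log2 0.12 ± 0.11; edgeR adjusted p = 0.436), and female B held more of it than female A in both hemispheres. The difference between species was not called (edgeR adjusted p = 0.194).

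Set side by side, 14 members were called vegetal in both species, which is 66.7% of the X. laevis and 73.7% of the X. tropicalis vegetal calls. Another 7 were called animal in both, which is 87.5% and 46.7% of the animal calls, and 22 were called in neither. The like shares over all models tested in both species were not counted, so these counts cannot be read as particular to the members. Over the 61 members the log2 fold changes of the species correlated at a Pearson r of 0.455 and a Spearman rho of 0.471, and 67.2% had the same sign. Over the 11688 models tested in both species r was 0.506, rho was 0.34 and 61.4% had the same sign. The points of each axis share their libraries and no test was made of these values.

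The difference between species was tested as the interaction of hemisphere and species. By edgeR 8 of 61 members differed, 7 with a lower log2 fold change in X. tropicalis and 1 with a higher one, beside 6.7% and 5.77% of all models tested. The difference (X. tropicalis minus X. laevis) was -1.06 ± 0.19 for snrpb (edgeR adjusted p = 0.00706), -0.89 ± 0.11 for sf3a1 (0.00175), -0.76 ± 0.12 for srsf6 (0.00369) and -0.76 ± 0.11 for sf3a3 (0.00271). For srsf12 it was 1.38 ± 0.14 (edgeR adjusted p = 0.000626). These 5 were called in each of the fits that left out an X. laevis batch. The other 3 were prpf40b, snrpd1 and prpf19, with differences of -0.72, -0.44 and -0.42, and each lost its call in at least 2 of the 4 fits. For snrpb, sf3a1 and srsf12 both species had a call, on opposite sides, and for sf3a3, prpf40b and prpf19 the fitted sign differed with a call in X. tropicalis alone. For srsf6 and snrpd1 the sign was shared and the size differed. Of these, srsf12 and sf3a1 match 1 X. laevis copy and snrpb, srsf6 and sf3a3 match both an L and an S copy, whose parts in the X. laevis values cannot be told apart.

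**Figure D3:**
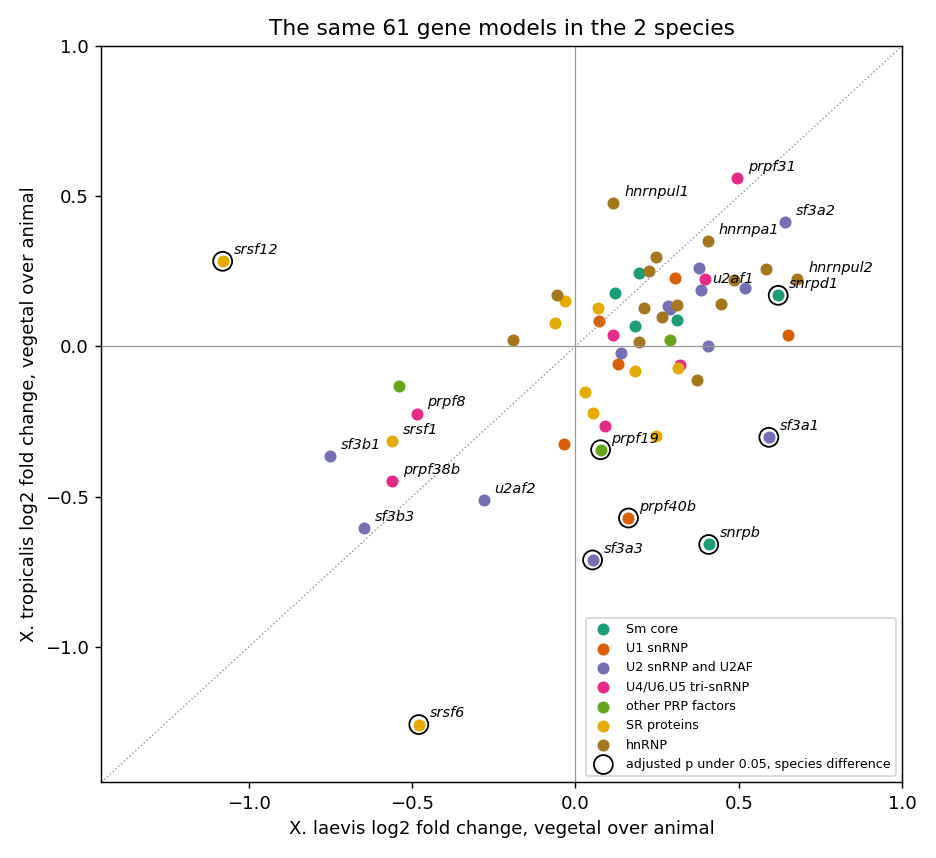
Log2 fold change (vegetal over animal) of each of the 61 members in X. laevis (horizontal) against X. tropicalis (vertical), coloured by role. Rings mark the 8 members whose difference between species had an adjusted p under 0.05, and the dotted line marks equal values. Ringed srsf12 lies at -1.08 and 0.28, and ringed snrpb at 0.41 and -0.66.

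No difference between the X. laevis females was called: edgeR gave 0 of 61 members and 0% of all 14517 models for the interaction of hemisphere and female, with an unadjusted p under 0.05 for 1 member and for 254 of all models. With so few pairs per female, the lack of calls does not show that the females were alike. Female A alone gave 9 vegetal and 7 animal calls among the members, and female B alone 11 and 4. Over all models, female A alone gave 2631 calls in either direction and female B alone 2013. The pairs of libraries differed in another way. The median log2 ratio of the members was 0.08 in A_t1, 0.29 in A_t2, 0.39 in B_t1 and 0.12 in B_t2, while that of all models lay between -0.02 and 0. Pair B_t1 gave the highest of the 4 ratios for 42 of 61 members (68.9%), against 35.2% of all models. The Sm core had a median of 0.54 in B_t1 and -0.01 in A_t1, and the SR proteins had 0.08 and -0.08. The vegetal library held 1.16 times the total counts of the animal one in A_t2 and 1.22 times in B_t1, and 0.871 times in A_t1 and 0.923 times in B_t2, and the part of depth in these ratios was not tested.

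**Figure D4:**
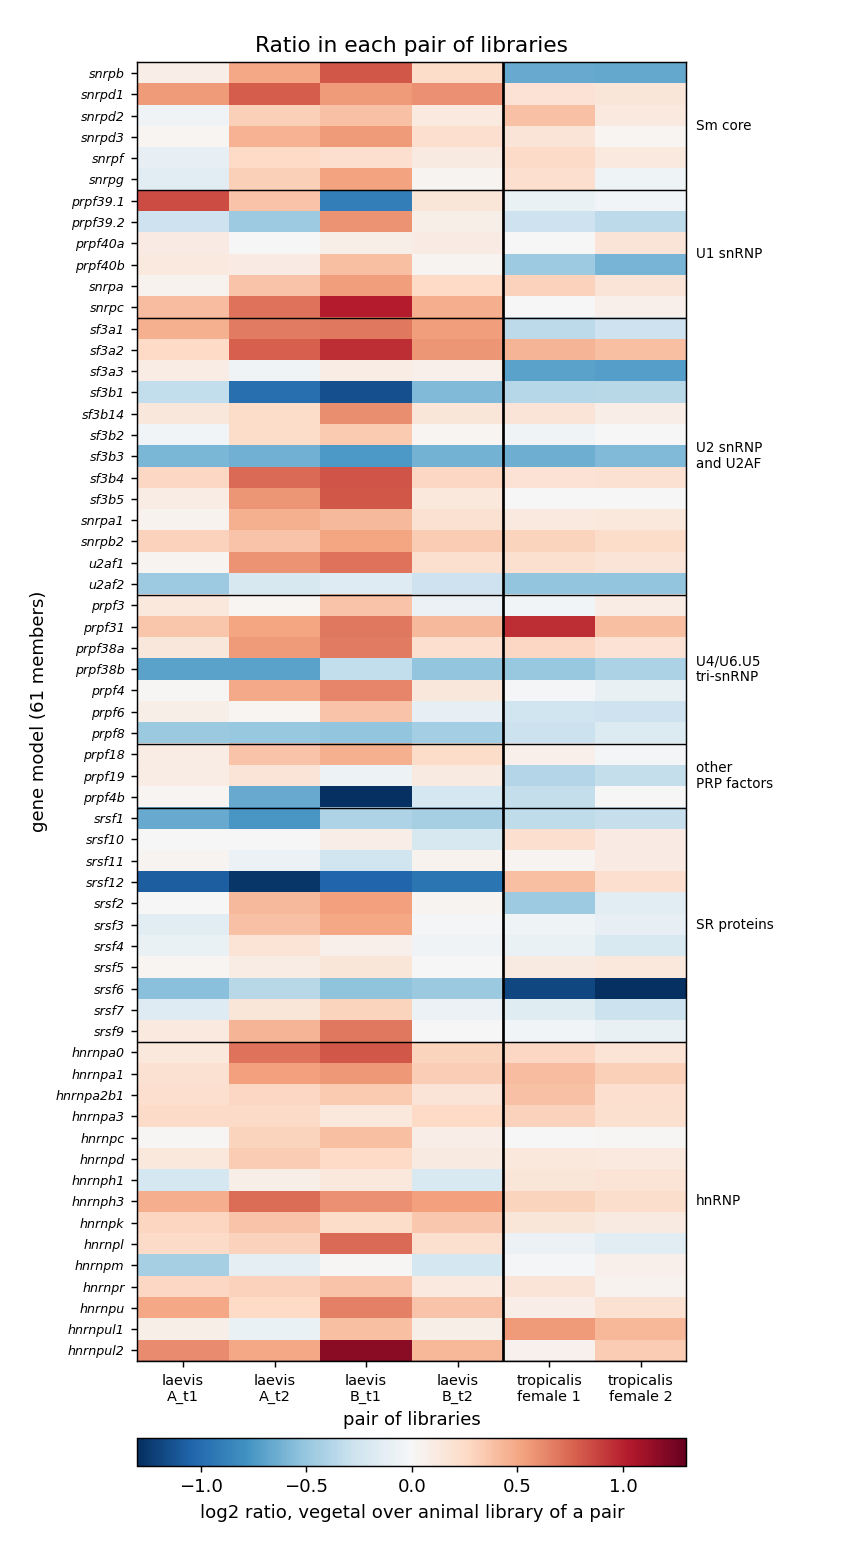
Log2 ratio of the vegetal to the animal library in each of the 4 X. laevis and 2 X. tropicalis pairs, for the 61 members ordered by role (red: vegetal higher, blue: animal higher). Rows such as sf3b3, prpf8 and srsf12 have 1 colour in all X. laevis pairs, whereas many rows of the Sm core, the U2 snRNP and the hnRNPs are palest in A_t1 and deepest in B_t1.

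Levels of the same member were far apart between the species for some models. Mean CPM in X. laevis and X. tropicalis was 313 and 32.2 for prpf31 in the animal hemisphere, 748 and 155 for prpf8, 14.5 and 136 for sf3b5, and 93.2 and 609 for hnrnph1. Both species were counted on X. tropicalis models, so a difference in expression and a difference in how many X. laevis reads were placed cannot be told apart, and no test was made. For hnrnph1 the X. laevis females also differed, with 128 and 127 CPM in the animal libraries of female A and 63.1 and 55 CPM in those of female B.

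The other genes of the splicing machinery were counted from lists of their own. Of 130 such models tested in X. laevis, 22 (16.9%) were called vegetal and 16 (12.3%) animal, beside 13.2% and 14.4% of all models. Of 128 in X. tropicalis, 24 (18.8%) were called vegetal and 25 (19.5%) animal, beside 15.6% and 17.3% of all models. The lists cover LSm proteins, the Prp19 complex, further tri-snRNP and U2 proteins, SR-related proteins, splicing regulators, snRNP assembly, the exon junction complex, the minor spliceosome and proteins with snrnp symbols. The mRNA of lsm4, a protein of the LSm ring on U6 snRNA, rose from 12.3 to 122 CPM in X. laevis (log2 3.27 ± 0.16; edgeR adjusted p = 1.11e-05) and from 18.7 to 57.2 CPM in X. tropicalis (log2 1.62 ± 0.10; edgeR adjusted p = 1.21e-35). Of the other 7 LSm models 0 were called in X. laevis and 1 (lsm6) was called vegetal in X. tropicalis.

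On the animal side, the SR-related matrix protein srrm2 fell by 0.68 and 1.03 on the log2 scale in X. laevis and X. tropicalis. The snRNA cap methylase tgs1 fell by 0.56 and 0.96, and the splicing regulator esrp1 by 1.22 and 1.03. The U5 helicase snrnp200, the partner of Prpf8, fell by 0.33 and 0.25, from 490.2 to 391 CPM in X. laevis and from 150.2 to 125.5 CPM in X. tropicalis. The minor-spliceosome partner of U2AF, zrsr2, fell by 1.72 in X. tropicalis, from 57.0 to 16.8 CPM, and was not called in X. laevis. Of the 6 models on its list 0 were called in X. laevis, and zmat5 was called vegetal in X. tropicalis. Of the exon junction core, eif4a3 was called animal and magoh vegetal in both species. The nuclear cap-binding subunit ncbp1 was called animal in X. laevis (log2 -0.45 ± 0.10) and vegetal in X. tropicalis (0.53 ± 0.08), while ncbp2 was called vegetal in both.

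Markers of other cells were low with some exceptions. Of 10 genes listed as follicle cell markers, 4 were tested in X. laevis and cyp17a1 alone was called, rising from 117.5 to 324.8 CPM. The list therefore summed to 81.7 to 155 CPM in animal and 296 to 367 CPM in vegetal libraries. Without cyp17a1 it summed to 2.66 to 3.84 and 1.85 to 3.36 CPM. Whether the cyp17a1 mRNA came from oocytes or from follicle cells was not tested. In X. tropicalis no follicle marker passed the filter, fshr, hsd3b1, foxl2 and cyp17a1 were at 0 in every library, and the sums were 0.661 to 2.19 and 0.899 to 1.18 CPM. Of the connective tissue list, fn1 was called vegetal in both species, and the sums were 124 to 159 CPM (animal) and 157 to 253 CPM (vegetal) in X. laevis and 72.3 to 76.0 and 86.8 to 89.5 CPM in X. tropicalis. The blood list summed to at most 20.2 CPM and the immune list to at most 6.92 CPM in any library. The part of such cells in the members' values was not tested.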

How the data were processed

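The authors deposited raw read counts per gene model for 12 oocyte hemisphere libraries, unnormalized. Bowtie2 2.1.0, edgeR and DESeq are named in the submitters' processing notes. The genome build, counter and strand setting were not given in the sources used here, which leaves paralogs, overlapping and antisense genes uncertain. Symbols came from the deposited annotation, and L and S copies from a RefSeq gene table (X. laevis v10.1). No sequence was used.

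The counts entered edgeR 4.0.16 (R 4.3.3): filterByExpr per species (minimum count 10), TMM factors, and the quasi-likelihood F test with the pair as a block. Its F statistic gave the standard errors. Models that passed in both species were tested for the species interaction, with 6 blocks and 1 spread per model. CPM used TMM-scaled totals, and log2 CPM of pairs a prior count of 2. DESeq2 1.42.0 and the settings of the closing section were alternatives. Figures used matplotlib 3.10.9. The fits were tested on simulated data.

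The pairing comes from the labels, which name the batch or female of each hemisphere. Paired libraries deviated together from their groups, with correlations from 0.701 to 0.844 (X. laevis) and 0.797 (X. tropicalis). The 4 X. laevis batches come from 2 animals. The X. tropicalis test had 1 residual degree of freedom against a prior of 162, so its p-values rest on the spread pooled across models. The species interaction assumes an equal spread, although the biological variation of X. laevis (coefficient 0.132) exceeded that of X. tropicalis (0.0468). A count of 0 (limit of 3 counts) allows up to 0.0986 CPM in an X. laevis library and 0.386 CPM in an X. tropicalis library, for counting error only.

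The members and lists were chosen with earlier results of these data known. Members named with values are, per species, the 8 called ones per direction with the largest change, at least 5 CPM and 1 direction in every pair, the 5 with the most reads, and those called in opposite directions or at 2-fold, plus the 4 per direction with the largest species difference. From each other list at most 2 genes per direction and species are named. The members hnrnpa0 and snrpb2 met the rule for members but are named without values. Values of further members were chosen after they were seen: snrpa, u2af1, prpf4b, prpf18, prpf40b, prpf6, prpf39.2, sf3b5, srsf7 and hnrnph1.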

Additional observations from a re-analysis of the deposited data

Results flagged for a closer look

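Among 122 groups of 4 X. laevis libraries (61 members in each hemisphere), 1 held a library far from the others: sf3b2 stood at 264.8 CPM in the animal library A_t1 and between 244.1 and 247.2 CPM in the other 3. Chance gives about 1 such group in 20.

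For 8 members the vegetal over animal log2 fold change differed between the species by edgeR's interaction test with Benjamini-Hochberg adjustment. The differences (X. tropicalis minus X. laevis) were -1.06 for snrpb, -0.89 for sf3a1, -0.76 for srsf6, -0.76 for sf3a3, -0.72 for prpf40b, -0.44 for snrpd1, -0.42 for prpf19 and 1.38 for srsf12. The adjusted p was between 0.000626 and 0.0482. All 4 pairs of X. laevis and both pairs of X. tropicalis moved in opposite directions for snrpb, sf3a1, srsf12 and prpf40b.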

How the results depend on the processing

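In X. laevis, 21 members were called vegetal. That number was 12 with no replicate block, 9 in female A alone and 11 in female B alone, and it ranged from 8 to 23 when each batch was left out. The 8 animal calls ranged from 7 to 8 over the same leave-outs and were 4 in female B alone. Library totals gave 14 vegetal and 9 animal calls and DESeq2 29 and 9. Over all models, X. laevis calls in either direction were 4017 in the main fit, 4061 with library totals, 4416 with DESeq2 and 2029 with no replicate block. They were 1711 to 4241 with a batch left out, 2631 in female A alone and 2013 in female B alone. In X. tropicalis the 19 vegetal calls of members became 12 with library totals alone and 9 with DESeq2. Over all models, X. tropicalis calls in either direction were 4256 in the main fit, 4179 with library totals and 2108 with DESeq2. With no replicate block 0 members were called vegetal and 0 animal, beside 262 of all 12916 models in either direction. With an X. tropicalis library left out, a lone library is assumed to vary like the others, so only log2 values of those fits are given. The X. tropicalis median of 0.0684 became 0.00817 with library totals, and -0.0762 to 0.201 with a library left out (-0.0478 without animal library 1, -0.0762 without vegetal library 2). Of the species differences, the 7 lower ones ranged from 4 to 9 with an X. laevis batch left out, and became 20, and the 1 higher one 3, with the species fitted apart. Over all 11688 models, species differences called in either direction were 1457 in the main fit. They were 897 to 2011 with an X. laevis batch left out and 3660 with the species fitted apart. Some members called in X. tropicalis changed sign with a library left out. Among them were hnrnpul2 (-0.0411 to 0.4367, lowest without vegetal library 2) and prpf19 (-0.808 to 0.1559, above 0 at 0.1559 without animal library 1 and at 0.003391 without vegetal library 2). Another was prpf31 (-0.2382 to 1.754, below 0 at -0.09313 without animal library 1 and at -0.2382 without vegetal library 2). The rest were u2af1 (-0.07622 to 0.4863), srsf7 (-0.4694 to 0.07977) and snrpa (-0.0001239 to 0.5085). The X. tropicalis fits with a library left out were made without the pairing. Both pairs of hnrnpul2, prpf31, u2af1 and snrpa were above 0, and both pairs of prpf19 and srsf7 were below 0. The cause of the shifts above was not tested. Library totals moved the median of all models to -0.0865 in X. laevis and -0.0671 in X. tropicalis.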
